A study of Mus musculus with 8 samples.

Results

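The 36 genes described here are transcripts of dividing cells in 2 sets, 21 that act in mitosis and 15 that act in DNA replication and the step into S phase. They were taken by name from a deposited table of 25343 genes, where all 36 were found once each, and the rule uses gene names alone. All 36 also entered the tests, which took genes that reached 10 normalized counts (reads scaled by 1 factor per library) in 4 or more libraries. RNA was measured in 8 libraries of cells sorted from the mouse cochlea, 4 of Ndp knockout (Ndp KO) mice and 4 of wild-type (WT) mice. Both genotypes came from postnatal days 4 to 6 on a background of C57BL/6 mixed with 129, and both carried the Atoh1-GFP reporter by which hair cells, which turn sound into nerve signals, were sorted. Each library pooled 12 to 20 sensory epithelia, so a library is 1 sample of many cochleae, and full-length cDNA was amplified from picogram amounts of RNA. Ndp encodes norrin, a secreted ligand of the receptor Fzd4. The sources used here do not describe the deleted part of Ndp.

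The cell cycle copies DNA in S phase and parts it in mitosis. Before S phase the Mcm2 to Mcm7 proteins form the helicase that opens DNA, Pcna then clamps the polymerases onto it, and the enzymes encoded by Tyms, Rrm1 and Rrm2 supply nucleotides. In mitosis Cdk1 with its cyclins, the Aurora and Polo kinases, spindle motors and kinetochore proteins condense and pull apart the chromosomes, and Cdc20 and Ube2c then drive the breakdown of the cyclins. In the mouse organ of Corti the progenitors leave the cycle in the embryo, and hair cells and their supporting cells are then normally postmitotic, held there by Cdk inhibitors and the retinoblastoma protein.

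Recovered reads numbered 35077950 to 48329827 per library. Ndp, as a check of the labels, had 10.5 to 66.8 normalized counts in the Ndp KO libraries and 90.4 to 206 in the WT libraries, without overlap, and was not called (adjusted p = 0.895, limma). All 12 hair cell markers were detected in every library, with summed levels of 380561 to 452361 normalized counts in Ndp KO and 356636 to 405052 in WT. All 13 supporting cell markers were detected as well, at 343165 to 481887 in Ndp KO and 285978 to 529998 in WT, so transcripts of both cell types were measured. In pooled RNA, fewer cells of a type and less RNA per cell cannot be told apart. Ndp KO replicate 1 stood apart from the other libraries in many of the genes described below. WT replicate 1 was also high, by less and mainly in the mitotic genes, so results are given with and without both. The labels do not say how pools relate to litters, so p-values measure the spread between these libraries only.

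The start regions of the genes differ between the sets in how often they hold short sequence elements known for cell cycle control. Start regions of some genes are printed below and do not all show this difference. Factors of the E2F family bind the starts of replication genes, the CHR (cell cycle genes homology region) is bound by the MuvB complex at mitotic genes, and the CCAAT box is bound by NF-Y. Windows of 250 bases before to 50 bases after the start were found in RefSeq (GRCm38.p6) for 30 of the 36 genes. Both strands were searched. The CHR was spelled TTTGAA, and the CCAAT box by the letters of its name. For E2F the spelling TTGGCGC was searched, and likewise the spelling TTCCCGC, then also the spelling TTCGCGC, and last the spelling TTGCCGC. E2F and CCAAT matches can share bases. The CHR letters occurred in 13 of 18 mitotic genes (72.2%) and in 1 of 12 replication genes (8.33%), against 14.6% of the 12301 tested genes that had a window. The E2F letters occurred in 3 mitotic genes, Mki67, Ccnb1 and Cdk1 (16.7%), and in 8 replication genes (66.7%), against 18.3% of the tested genes. The CCAAT letters were frequent in both sets, at 88.9% and 75.0%, against 42.2%. The same split was seen in genes of the 2 processes outside the 36: the CHR letters occurred in 66.7% of 30 other mitotic genes and in 20.8% of 24 other replication genes, and the E2F letters in 16.7% and 62.5%. A match of letters is a description and does not show that a factor binds.

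**Figure D1:**
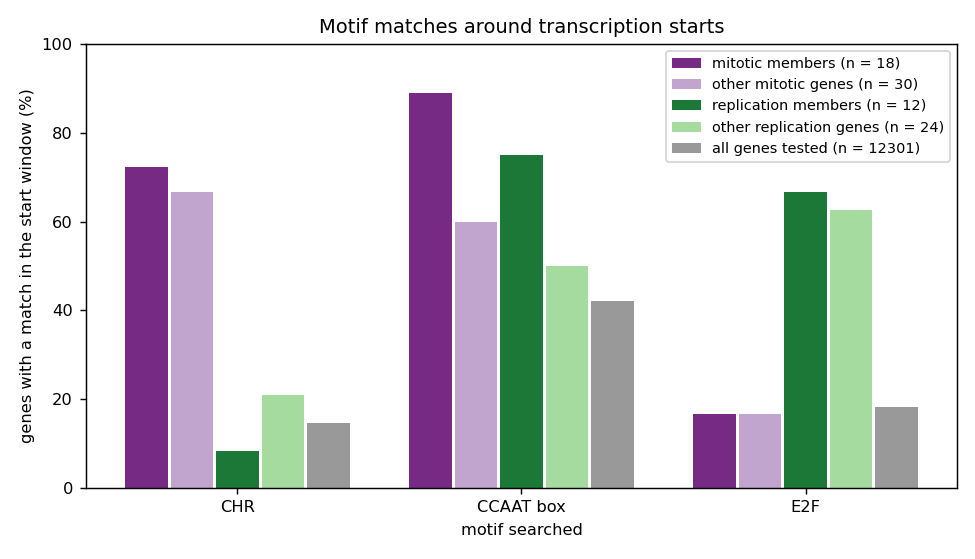
Share of genes (percent, y axis) with a match to the letters of each motif (x axis) in the window from 250 bases before to 50 bases after the start, for the mitotic and replication genes described here, other genes of each process and all tested genes with a window. CHR letters reach 72.2% in the mitotic genes and 8.33% in the replication genes, and E2F letters 16.7% and 66.7%.

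The windows of the 3 genes of each set with the smallest p between genotypes are printed below, with Cdk1 and Mcm6 added as clear examples after their matches were seen. They run 5′ to 3′ along the gene, in lower case, with every match to a searched motif in capitals. For the mitotic genes these are Nusap1 (chr2:119618048-119618347, plus strand), Bub1 (chr2:127831810-127832109, minus strand), Ccnb1 (chr13:100786437-100786736, minus strand) and Cdk1 (chr10:69352863-69353162, minus strand).
Nusap1: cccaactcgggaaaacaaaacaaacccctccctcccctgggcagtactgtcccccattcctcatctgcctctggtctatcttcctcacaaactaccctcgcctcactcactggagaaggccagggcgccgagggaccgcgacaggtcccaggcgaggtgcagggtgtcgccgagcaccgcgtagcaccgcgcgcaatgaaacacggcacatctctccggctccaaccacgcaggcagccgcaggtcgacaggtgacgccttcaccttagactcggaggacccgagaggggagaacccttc
Bub1: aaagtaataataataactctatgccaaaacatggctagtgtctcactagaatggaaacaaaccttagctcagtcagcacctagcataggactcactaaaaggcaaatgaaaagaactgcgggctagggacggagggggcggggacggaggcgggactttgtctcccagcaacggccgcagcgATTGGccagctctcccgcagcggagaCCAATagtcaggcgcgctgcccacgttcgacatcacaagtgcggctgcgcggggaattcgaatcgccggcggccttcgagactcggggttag
Ccnb1: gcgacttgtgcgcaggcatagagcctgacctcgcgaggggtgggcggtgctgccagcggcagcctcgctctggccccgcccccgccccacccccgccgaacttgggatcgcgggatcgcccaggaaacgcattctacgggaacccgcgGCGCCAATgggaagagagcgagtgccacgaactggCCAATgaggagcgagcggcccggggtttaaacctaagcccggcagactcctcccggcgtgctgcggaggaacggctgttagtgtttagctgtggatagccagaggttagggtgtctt
Cdk1: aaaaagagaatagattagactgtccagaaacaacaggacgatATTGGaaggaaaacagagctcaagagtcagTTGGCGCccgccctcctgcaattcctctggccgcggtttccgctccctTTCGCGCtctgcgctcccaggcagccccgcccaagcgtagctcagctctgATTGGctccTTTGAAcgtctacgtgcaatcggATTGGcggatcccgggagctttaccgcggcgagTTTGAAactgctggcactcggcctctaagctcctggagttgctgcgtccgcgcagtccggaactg
The Cdk1 window held CHR letters at bases -71 to -66 and -15 to -10 from the start, 3 CCAAT boxes and 2 E2F matches. In Ccnb1 an E2F match at -102 to -96 shared bases with a CCAAT box at -99 to -95. Bub1 held 2 CCAAT boxes, and Nusap1 held no match. Of these mitotic windows only that of Cdk1, added after its matches were seen, held CHR letters.

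For the replication genes the windows are Ccne1 (chr7:38107441-38107740, minus strand), Mcm5 (chr8:75109259-75109558, plus strand), Pcna (chr2:132253131-132253430, minus strand) and Mcm6 (chr1:128359656-128359955, minus strand).
Ccne1: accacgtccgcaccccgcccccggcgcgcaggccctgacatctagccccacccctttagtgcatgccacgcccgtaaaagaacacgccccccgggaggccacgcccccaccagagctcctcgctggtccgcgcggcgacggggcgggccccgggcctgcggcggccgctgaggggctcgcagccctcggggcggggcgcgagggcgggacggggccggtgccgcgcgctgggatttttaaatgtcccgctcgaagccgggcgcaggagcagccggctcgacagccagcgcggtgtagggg
Mcm5: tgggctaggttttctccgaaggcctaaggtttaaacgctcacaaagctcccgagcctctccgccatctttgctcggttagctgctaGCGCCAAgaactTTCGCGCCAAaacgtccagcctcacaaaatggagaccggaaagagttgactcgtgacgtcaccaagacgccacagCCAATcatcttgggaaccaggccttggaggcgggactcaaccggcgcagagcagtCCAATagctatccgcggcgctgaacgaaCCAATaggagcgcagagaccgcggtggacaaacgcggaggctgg
Pcna: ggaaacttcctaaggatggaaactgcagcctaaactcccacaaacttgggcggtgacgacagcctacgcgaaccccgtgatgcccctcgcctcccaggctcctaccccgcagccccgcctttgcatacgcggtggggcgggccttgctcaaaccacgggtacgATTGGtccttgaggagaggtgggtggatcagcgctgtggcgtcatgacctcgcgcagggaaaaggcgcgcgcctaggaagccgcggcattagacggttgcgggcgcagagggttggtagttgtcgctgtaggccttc
Mcm6: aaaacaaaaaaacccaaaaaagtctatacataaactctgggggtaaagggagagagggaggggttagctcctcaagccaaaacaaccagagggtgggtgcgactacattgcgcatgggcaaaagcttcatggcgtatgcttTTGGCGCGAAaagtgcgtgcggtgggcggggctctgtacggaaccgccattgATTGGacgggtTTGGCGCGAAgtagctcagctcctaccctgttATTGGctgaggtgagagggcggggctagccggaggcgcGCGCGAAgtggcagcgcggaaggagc
Mcm6 held 5 E2F matches, of which those at -109 to -103 and -106 to -100 overlap, and those at -46 to -40 and -43 to -37 overlap. Mcm5 held 3 CCAAT boxes and 3 E2F matches, of which those at -152 to -146 and -149 to -143 overlap. Pcna held 1 CCAAT box and Ccne1 no match. The last bases of the Mcm5 and Mcm6 windows were not found in transcripts of these genes (GENCODE M21). Positions in these windows therefore rest on the RefSeq start alone.

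Transcripts of both sets were present in all libraries at low to moderate levels. Levels per gene length (mean normalized count over the 8 libraries per kb of merged exons, GENCODE M21) had a median of 32.9 per kb for the mitotic genes, from 7.29 per kb for Mki67 to 419 per kb for Hmgb2. The replication genes had a median of 136 per kb, from 63.4 per kb for Ccne2 to 637 per kb for Pcna. The hair cell markers had a median of 2504 per kb. Of the mitotic genes 17 were above 0 in all 8 libraries and 4 had at least 1 library at 0, while all 15 replication genes were above 0 in every library. A count of 0 allows up to 3 reads, worth 2.34 to 3.49 normalized counts in a library.

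The plainest feature of the mitotic genes was a single library of each genotype with high levels. Ndp KO replicate 1 was the highest of all 8 libraries for 19 of 21 mitotic genes, against 11.6% of all 18203 genes tested, and WT replicate 1 was the second highest for 14 of these 19. Summed over the 21 genes, the Ndp KO libraries 1 to 4 held 12337, 3057, 2911 and 2468 normalized counts and the WT libraries 1 to 4 held 5477, 3313, 2291 and 2697. Ndp KO replicate 1 thus held 4.39 times the mean of the other 3 Ndp KO libraries, and WT replicate 1 held 1.98 times the mean of the other 3 WT libraries. Gene by gene, the ratio of Ndp KO replicate 1 to the mean of the other Ndp KO libraries had a median of 6.78 and a range of 0.998 to 15.5. It was above 2 for 18 of 21 mitotic genes and for 5.85% of all genes tested, whose median ratio was 0.989. The ratio of WT replicate 1 to the other WT libraries had a median of 2.30 and a range of 1.01 to 11.2, and was above 2 for 15 of 21 mitotic genes and for 5.02% of all genes tested. These ratios describe libraries that were already known to be high, so no test is given.

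**Figure D2:**
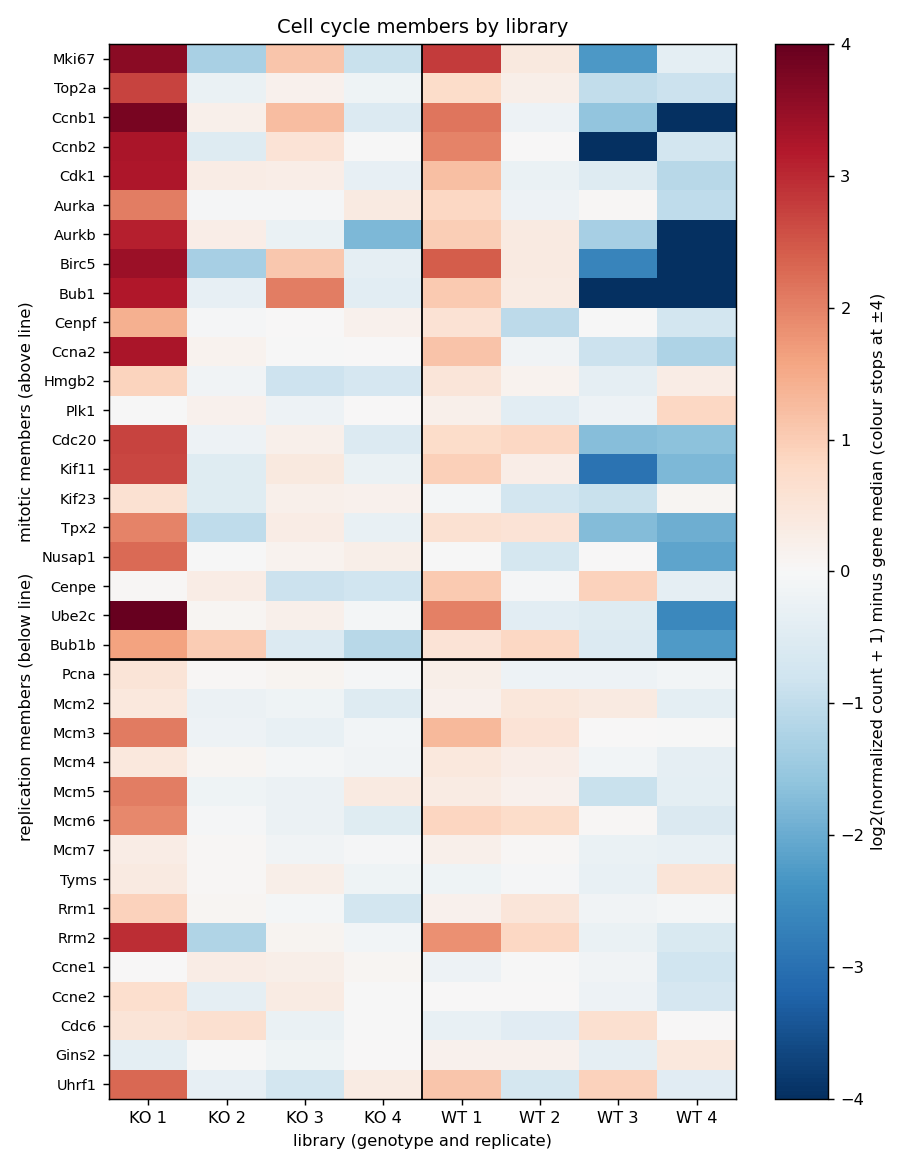
Level of each of the 36 genes (rows) in each library (columns, Ndp KO left and WT right), as log2(normalized count + 1) minus the median of that gene over the 8 libraries, with the colour scale ending at 4 in each direction. Ndp KO replicate 1 is the highest library for 19 of 21 mitotic genes and 9 of 15 replication genes.

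The replication genes followed the same libraries by less. Ndp KO replicate 1 was the highest library for 9 of 15, and its ratio to the mean of the other Ndp KO libraries had a median of 1.58 and a range of 0.787 to 9.60, with 6 of 15 above 2. For WT replicate 1 the median ratio was 1.30, the range 0.737 to 3.26, and 3 of 15 were above 2. Summed over the 15 genes, the Ndp KO libraries 1 to 4 held 17280.4, 10119, 9501 and 8770.3 normalized counts and the WT libraries 1 to 4 held 11840.5, 10909, 9802 and 8978. The ratio of the highest to the lowest library (each count plus 1) had a median of 20.5 for mitotic genes, 2.13 for replication genes and 2.32 for all genes tested, and the mitotic range ran from 2.37 to 1137.

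The mitotic cyclins and their kinase followed this pattern. Ccnb1 (ENSMUSG00000041431, chromosome 13, 100778650 to 100786570, minus strand, mm10), which encodes cyclin B1, had 1136, 94.2, 193 and 55.0 normalized counts in Ndp KO libraries 1 to 4 and 358, 69.4, 26.5 and 0 in WT libraries 1 to 4. Replicate 1 was the highest within each genotype, and the genotypes overlapped. Ccnb2, the gene of cyclin B2, had 296, 20.6, 44.2 and 29.7 in Ndp KO and 122, 30.1, 0 and 17.4 in WT. Cdk1 (ENSMUSG00000019942, chromosome 10, 69335146 to 69352938, minus strand), the kinase that drives entry into mitosis, had 487, 63.8, 62.3 and 40.7 normalized counts in Ndp KO and 119, 42.0, 35.9 and 23.3 in WT. Apart from replicate 1 of each genotype, no library exceeded 63.8 normalized counts of Cdk1. Ccna2, whose cyclin A2 acts in S phase and in entry into mitosis, had 989 in Ndp KO replicate 1 and 100.1 to 112 in the other 3 Ndp KO libraries, and 224 in WT replicate 1 and 43.0 to 93.1 in the other 3 WT libraries.

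Mki67 and Top2a are widely used to mark dividing cells. Mki67 (ENSMUSG00000031004, chromosome 7, 135689784 to 135716361, minus strand), which coats mitotic chromosomes, had 295, 8.83, 51.4 and 12.1 normalized counts in Ndp KO libraries 1 to 4 and 167, 31.0, 3.90 and 17.4 in WT libraries 1 to 4. Top2a, the topoisomerase that untangles sister DNA, had 1004, 129, 173 and 139 in Ndp KO and 259, 182, 77.2 and 84.9 in WT. Both genes were highest in replicate 1 of each genotype, and in both the genotypes overlapped.

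The kinases and checkpoint genes divided into those that followed the pattern and those that did not. Aurkb, the kinase of the chromosomal passenger complex, had 358, 49.0, 34.3 and 11.0 normalized counts in Ndp KO and 82.4, 52.9, 15.6 and 0 in WT. Birc5, survivin of the same complex, had 533 in Ndp KO replicate 1 and 263 in WT replicate 1, and at most 104 in any other library. Bub1 (ENSMUSG00000027379, chromosome 2, 127801122 to 127831865, minus strand), a spindle checkpoint kinase, had 267, 22.6, 121 and 20.9 in Ndp KO and 60.2, 35.6, 0 and 0 in WT. It was the only mitotic gene at 0 in more than 1 library. Aurka, the kinase of the spindle poles, had 357 in Ndp KO replicate 1 and 83.4 to 111 in the other Ndp KO libraries, and 41.9 to 153 in WT. Bub1b, a checkpoint partner of Bub1, had 425, 279, 92.9 and 62.7 normalized counts in Ndp KO and 202, 246, 93.6 and 27.9 in WT, so it was high in both replicates 2 as well. Plk1, a Polo kinase gene whose product acts throughout mitosis, did not follow: it had 279, 317, 242 and 282 normalized counts in Ndp KO and 322, 211, 244 and 501 in WT, so its highest library was WT replicate 4.

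Spindle and kinetochore genes were mixed in the same way. Kif11, a spindle motor, had 512 normalized counts in Ndp KO replicate 1 and 56.9 to 104 in the other 3 Ndp KO libraries, and 153 in WT replicate 1 and 9.36 to 94.9 in the other 3 WT libraries. Nusap1 (ENSMUSG00000027306, chromosome 2, 119618298 to 119651244, plus strand), a microtubule protein of the spindle, had 472, 97.1, 109 and 114 in Ndp KO and 96.1, 59.3, 99.0 and 22.1 in WT. Here WT replicate 1 was not the highest WT library. Cenpe, a kinetochore motor, went against the set: it had 148, 175, 78.5 and 82.5 normalized counts in Ndp KO and 299.9, 139, 271 and 110.5 in WT, with the 2 highest levels in WT. Ube2c and Cdc20, both of the anaphase-promoting complex pathway, had 759 and 739 normalized counts in Ndp KO replicate 1, against at most 54.1 and 128 in the other Ndp KO libraries. WT replicate 1 held 190.1 of Ube2c and 185 of Cdc20, and WT replicate 2 held 201 of Cdc20. Tpx2, a spindle assembly factor, had 53.9 to 435 in Ndp KO and 27.9 to 169 in WT, Kif23, a motor of cell division, 108 to 233 in Ndp KO and 81.1 to 158 in WT, and Cenpf, a kinetochore protein, 151 to 417 in Ndp KO and 74.9 to 234 in WT. All 3 were highest in Ndp KO replicate 1. Hmgb2, a chromatin protein, had 668 to 2193 in Ndp KO and 932 to 1674 in WT, with replicate 1 highest in each genotype.

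**Figure D3:**
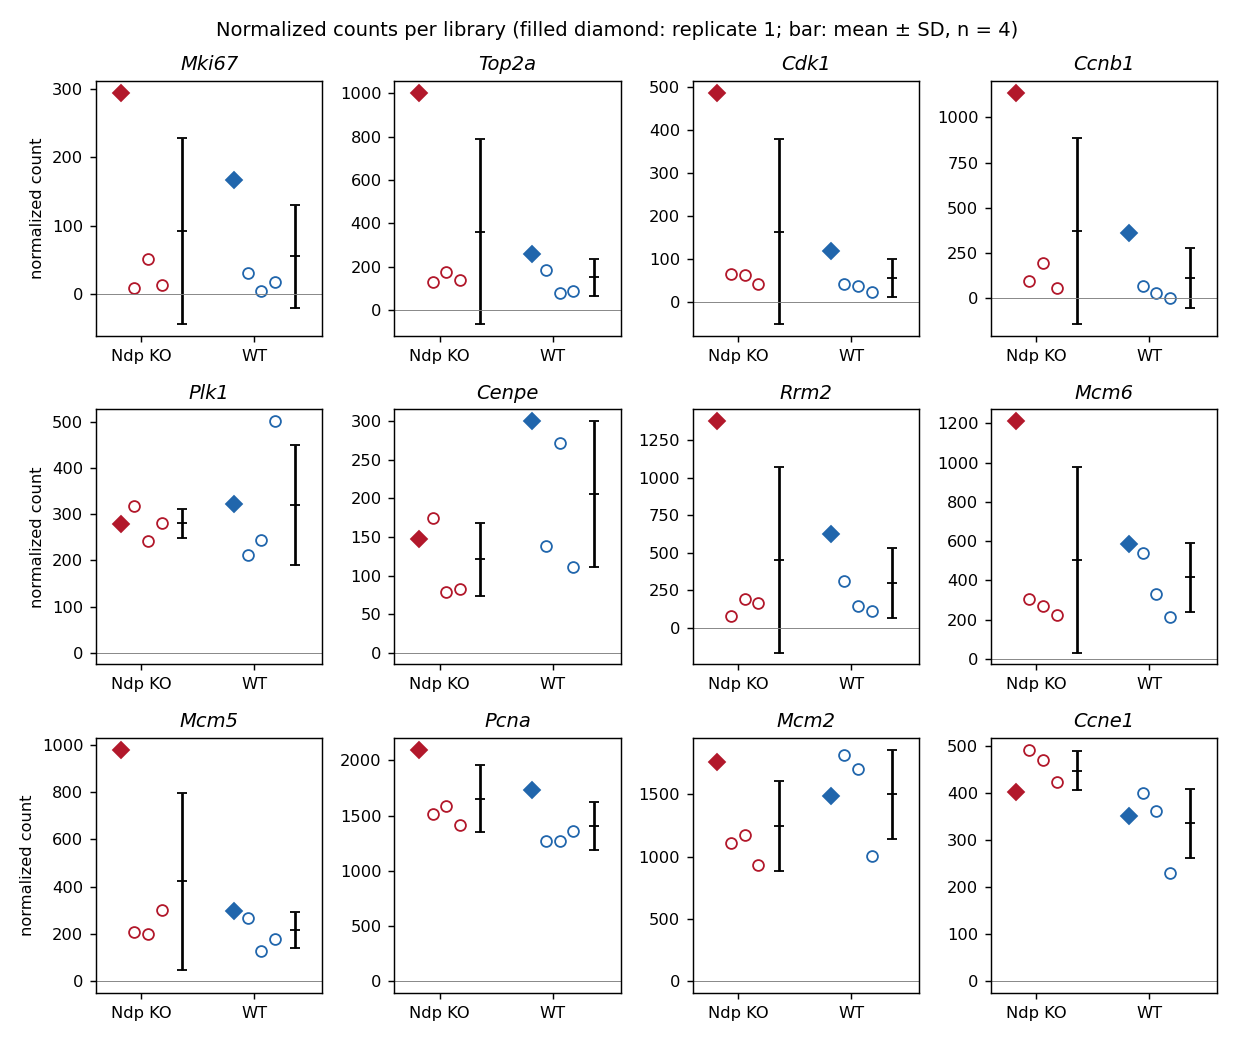
Normalized counts (y axis, linear) of 12 of the genes in the Ndp KO libraries (red, left) and the WT libraries (blue, right), with replicate 1 as a filled diamond and mean ± SD (n = 4) as a bar. Replicate 1 of Ndp KO is far above the rest for Mki67, Top2a, Cdk1, Ccnb1, Rrm2, Mcm6 and Mcm5, while Plk1, Cenpe and Ccne1 do not show it.

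Among the replication genes, nucleotide synthesis and helicase genes held both the steepest and the flattest profiles. Rrm2 (ENSMUSG00000020649, chromosome 12, 24708241 to 24714146, plus strand), the regulated subunit of ribonucleotide reductase, had 1376, 76.5, 189 and 165 normalized counts in Ndp KO libraries 1 to 4 and 626, 314, 147 and 115 in WT libraries 1 to 4. It had the largest ratio of highest to lowest library of the 15 genes (17.8). Rrm1, the other subunit, had 1967 in Ndp KO replicate 1 and 620.3 to 1086 in the other Ndp KO libraries, and 947 to 1452 in WT. Tyms, thymidylate synthase, had 847 to 1218 in Ndp KO and 784 to 1372 in WT, and its highest library was WT replicate 4.

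Of the 6 helicase genes, Mcm3, Mcm5 and Mcm6 were over 4 times higher in Ndp KO replicate 1 than in the mean of the other Ndp KO libraries. Mcm6 (ENSMUSG00000026355, chromosome 1, 128331590 to 128359664, minus strand) had 1211, 308, 271 and 227 normalized counts in Ndp KO and 584, 538, 331 and 212 in WT. Mcm5 had 979, 209, 200.3 and 301 in Ndp KO and 296, 266, 126 and 180.2 in WT. Mcm3 had 155 to 819 in Ndp KO and 191 to 475 in WT. Mcm2, Mcm4 and Mcm7 stood less apart, with ratios of 1.65, 1.37 and 1.27. Mcm4 had 526 to 763 in Ndp KO and 448 to 768 in WT, and Mcm7 1376 to 1864 in Ndp KO and 1225 to 1739 in WT. Mcm2 had 1759.6, 1111, 1168 and 929 normalized counts in Ndp KO and 1485, 1810.2, 1700.5 and 1005 in WT, and was highest in WT replicate 2.

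Of the other replication genes, Pcna, the sliding clamp, had 2097, 1512, 1589 and 1416 normalized counts in Ndp KO and 1728, 1268, 1267 and 1357 in WT. Uhrf1, which carries DNA methylation through replication, had 996, 162, 123 and 257 in Ndp KO and 446, 124, 386 and 150.0 in WT. Ccne1 (ENSMUSG00000002068, chromosome 7, 38097984 to 38107534, minus strand), the cyclin E1 gene of S phase entry, differed from these: it had 404, 493, 471 and 425 normalized counts in Ndp KO and 352, 402, 363 and 231 in WT, and Ndp KO replicate 1 was the lowest of its genotype. Ccne2 had 347, 169.7, 274 and 217 in Ndp KO and 219, 219, 190.2 and 136 in WT. The licensing gene Cdc6 and Gins2, a subunit of the active helicase, ranged from 701 to 1291 and from 294 to 392 in Ndp KO, and from 613 to 1300.5 and from 301 to 519.7 in WT.

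The comparison of genotypes asked whether loss of Ndp changed these genes in the sorted cells. Limma, fitted over all 18203 genes with Benjamini-Hochberg adjustment, called 0 of the 21 mitotic and 0 of the 15 replication genes at an adjusted p under 0.05, against 1 gene (0.00549%) of all tested. The lowest adjusted p was 0.895 for a mitotic and 0.909 for a replication gene, and edgeR and DESeq2 on the recovered reads also called 0 of each, though DESeq2 gave no adjusted p for Cdk1, Ccna2, Ube2c and Mcm3. At an unadjusted p under 0.05 limma listed 1 mitotic gene, Nusap1, and 0 replication genes, where 3.1% of all genes were listed as higher and 2.47% as lower in Ndp KO. edgeR and DESeq2 each listed 1 mitotic and 0 replication genes. In the authors' deposited table none of the 32 genes with a p-value had an adjusted p under 0.05, the lowest being 0.618, and Cdk1, Ccna2, Ube2c and Mcm3 had no p-value. The genotypes did not overlap for 1 of the 36 genes, Ccne1, higher in Ndp KO, against 1.46% of all genes higher and 1.58% lower without overlap. Ccne1 averaged 448 ± 41.2 normalized counts in Ndp KO and 337 ± 73.5 in WT (SD, n = 4 each). Its log2 difference was 0.44 ± 0.23 (SE), and limma gave it an adjusted p of 0.909.

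In direction, 18 of 21 mitotic genes had a positive log2 difference (Ndp KO minus WT) with a median of 0.99, and 10 of 15 replication genes with a median of 0.10. Over all genes tested 52.5% were positive and the median was 0.02. The 3 negative mitotic genes were Cenpe at -0.72 ± 0.42, Hmgb2 at -0.34 ± 0.35 and Plk1 at -0.12 ± 0.29 (log2 difference ± SE). The largest mitotic differences were 3.22 ± 1.46 for Bub1, 2.68 ± 1.55 for Ccnb1, 1.79 ± 1.44 for Birc5, 1.74 ± 1.33 for Ccnb2 and 1.67 ± 1.39 for Aurkb (limma, log2 difference ± SE). Leaving out 1 library moved them to 2.29 to 4.27 for Bub1, 1.06 to 3.89 for Ccnb1, 0.65 to 2.96 for Birc5, 0.40 to 2.72 for Ccnb2 and 0.32 to 2.45 for Aurkb. The order also depended on the tool: edgeR gave 1.05 for Birc5 and 1.20 for Ccnb2, below 1.77 for Ube2c and 1.64 for Ccna2. Nusap1, the gene with the smallest p, averaged 198 ± 183 normalized counts in Ndp KO and 69.1 ± 36.2 in WT (SD, n = 4 each), and its log2 difference of 1.36 ± 0.61 (SE) had a limma adjusted p of 0.895. Differences of 0.83 to 1.47 were found for Kif11, Ube2c, Ccna2, Cdk1, Cdc20, Tpx2 and Top2a, and of 0.51 to 0.69 for Cenpf, Aurka, Bub1b, Kif23 and Mki67. Mcm5 had the largest replication difference, 0.69 ± 0.49, followed by Ccne1 and by Ccne2 at 0.37 ± 0.29. Cdc6, Pcna, Uhrf1, Mcm7, Tyms, Mcm4 and Mcm6 lay between 0.01 and 0.23. Mcm2, Gins2, Mcm3 and Rrm1 lay between -0.28 and -0.07, and Rrm2 at -0.0048 ± 0.81 had the widest error of the set. The medians moved with single libraries, and the mitotic median most. It was 0.32 without Ndp KO replicate 1, with 17 of 21 positive, and was 0.62 without WT replicate 4. Without both replicates 1 the mitotic median was 0.71 with 18 of 21 positive, and the replication median -0.03 with 7 of 15 positive. The replication median was also negative without Ndp KO replicate 1 (-0.10) and without WT replicate 4 (-0.05), was 0.0041 without WT replicate 3 and reached 0.21 without WT replicate 1.

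Of the 21 mitotic genes, 10 had their single lowest level in WT replicate 4 and 6 in WT replicate 3. These libraries were lowest for 20.0% and 14.8% of all genes tested. The counts leave out ties, while the shares give a tie to the first tied library, so the 2 measures differ slightly. By sum, however, Ndp KO replicate 4 (2468) lay below WT replicate 4 (2697). Hmgb2 alone held 748 of the former and 1464 of the latter, and without it the order of these sums is reversed. Without both replicates 1 the log2 difference of Bub1 was 3.58 ± 1.47 and that of Ccnb1 3.02 ± 1.39 (SE), genes with 1 or 2 WT libraries at 0, so these differences depend on the pseudocount of 1 and are not bounds. Summed over the 21 genes, the other 3 libraries held 2812 normalized counts on average in Ndp KO and 2767 in WT, with ranges of 2468 to 3057 in Ndp KO and 2291 to 3313 in WT that overlap. Hmgb2 alone contributed 668 to 1072 normalized counts (mean 829) to these sums in Ndp KO and 932 to 1464 (mean 1241) in WT. Without Hmgb2 the Ndp KO average is therefore higher by more, and the ranges still overlap. For the replication genes the corresponding averages were 9464 in Ndp KO and 9896 in WT. Library titles begin with a pair of numbers. The pair was 5 and 14 for WT replicate 1 and 6 and 19 for Ndp KO replicate 1. In the other libraries the pairs ran from 7 and 25 to 8 and 20. The part of this label in the levels of both replicates 1 was not tested. A single pair, 7 and 25, is shared by Ndp KO replicate 2 and WT replicate 2. Between them the mitotic sum was 3057 in Ndp KO and 3313 in WT, and the replication sum 10119 and 10909. Both were lower in the knockout. Hmgb2 alone had 1072 in this Ndp KO library and 1327 in this WT library, so it made up nearly all of the mitotic difference.

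**Figure D4:**
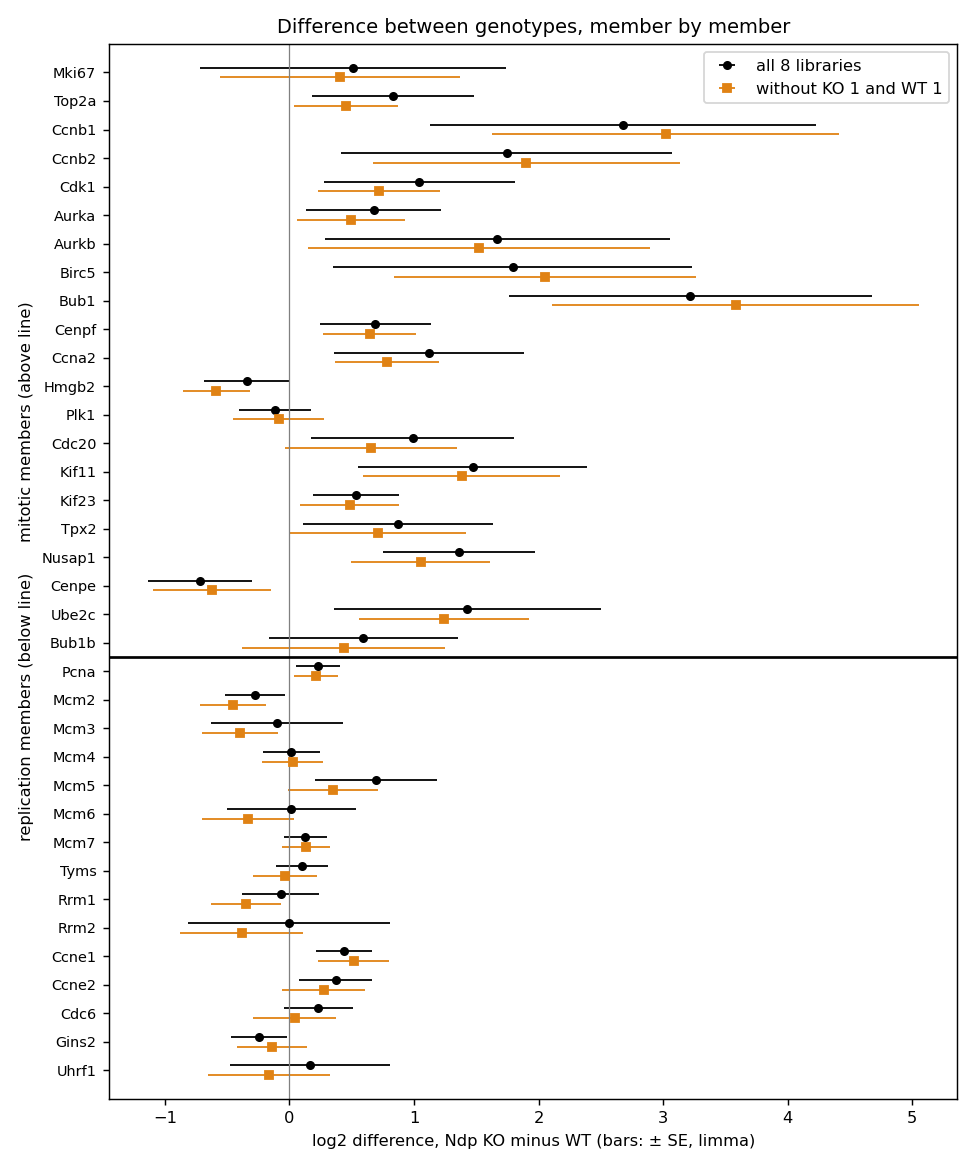
Log2 difference, Ndp KO minus WT (x axis, bars ± SE from limma), of each gene with all 8 libraries (black) and without replicate 1 of both genotypes (orange). With all libraries 18 of 21 mitotic genes lie above 0 with a median of 0.99, and the replication genes scatter around 0 with a median of 0.10.

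Genes of the same processes outside the 36 were also summed, and both lists were highest in Ndp KO replicate 1. The second highest sum was in WT replicate 1 for other mitotic genes (8129) and in WT replicate 2 for other replication genes (19599, with 17963 in WT replicate 1). Of 38 other mitotic genes, 34 were highest in Ndp KO replicate 1, and of 30 other replication genes 16 were. Their sums in Ndp KO replicate 1 were 2.42 and 1.33 times the mean of the other Ndp KO libraries, and in WT replicate 1 they were 1.43 and 1.09 times the mean of the other WT libraries. Limma called 0 of the 37 other mitotic and 0 of the 29 other replication genes tested, and listed 0 and 2 at an unadjusted p under 0.05, both higher in Ndp KO (all genes: 3.1%). edgeR called none and listed 1 and 1, and DESeq2 called none and listed 2 and 2. Hmmr, a spindle protein, had 205, 55.9, 77.6 and 49.5 normalized counts in Ndp KO and 75.0, 22.8, 41.3 and 24.4 in WT. Cenpa, the histone of the centromere, had 487 in Ndp KO replicate 1 and 104 to 147 in the other Ndp KO libraries, and 53.8 to 127 in WT, with 86.6 in WT replicate 1. The 2 replication genes with a small p were Gins3 and the DNA ligase gene Lig1, at log2 differences of 1.20 ± 0.45 and 0.69 ± 0.29 (SE) and a limma adjusted p of 0.895 each.

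The 6 Cdk inhibitor genes, the brakes of the cycle, had a median of 751 normalized counts per kb but a wide range, with Cdkn2c at 20.1 and Cdkn2b at 43.6 per kb. Their median ratio of highest to lowest library was 2.71. Cdkn1b, which encodes p27, the Cdk inhibitor that keeps supporting cells from dividing, had 2469, 2733, 2684 and 2899 normalized counts in Ndp KO and 3421, 3025, 2036 and 2979.9 in WT. Cdkn2d, which encodes p19, an inhibitor of Cdk4 and Cdk6 that hair cells need to stay postmitotic, had 7251, 7833, 8584 and 6798 in Ndp KO and 6894, 6097, 6809 and 7654 in WT. At 4599.7 normalized counts per kb, Cdkn2d exceeded the 637 per kb of Pcna, the highest of the 36 genes on that scale. Cdkn1a, which encodes p21, had 2842 to 3848 in Ndp KO and 1955 to 5052 in WT. Limma called 0 of 6 Cdk inhibitor genes, with 1, Cdkn1c (p57), lower at an unadjusted p under 0.05 (all genes: 2.47%), as in edgeR and DESeq2: it averaged 1462 ± 456 normalized counts in Ndp KO and 2170.4 ± 388 in WT (SD, n = 4 each), with an adjusted p of 0.895. None of the 6 had its highest level in Ndp KO replicate 1 (all genes: 11.6%), and 3 of the 6 had it in WT replicate 1 (all genes: 10.9%). Cdkn2c was nevertheless high in both replicates 1. It had 86.4, 17.7, 27.1 and 25.3 normalized counts in Ndp KO libraries 1 to 4 and 188, 35.6, 45.2 and 5.81 in WT libraries 1 to 4.

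Among genes of the switch into S phase, Ndp KO replicate 1 was highest for 1 of 6 G1 cyclins and kinases, Ccnd2. The same library was highest for 4 of 17 genes of the Rb and E2F families. Ccnd2, cyclin D2, had 2534 normalized counts in Ndp KO replicate 1 and 177 to 196 in the other Ndp KO libraries. In WT it had 1193 in replicate 1 and 160 to 235 in the other libraries. Ccnd1, cyclin D1, had 1355, 1529, 979.8 and 1852 normalized counts in Ndp KO and 3891, 1373, 1488 and 2855 in WT, and WT replicate 1 was highest. Rb1, the retinoblastoma gene, had 3138 to 4356 in Ndp KO and 2006 to 4332 in WT, with the lowest level in WT replicate 1. Limma called 0 of 6 G1 cyclin and kinase genes and 0 of 17 Rb and E2F family genes, and listed 0 and 1 at an unadjusted p under 0.05, the 1 lower in Ndp KO (all genes: 2.47%). edgeR and DESeq2 also called none and listed 1 in each list, Ccnd1 and E2f3, though DESeq2 gave no adjusted p for Ccnd2. E2f3 stood at 291 ± 71.4 normalized counts in Ndp KO and 438 ± 98.4 in WT (SD, n = 4 each). E2f1, the classical activator of S phase genes, had 815 in Ndp KO replicate 1 and 414 to 479 in the other Ndp KO libraries, and 306 to 518 in WT.

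Markers of other cell types were set beside the cell cycle sums. No list of supporting cell, macrophage, endothelial, mesenchyme, Schwann cell or red blood cell markers had its highest sum in Ndp KO replicate 1. The sums there were 343165 for 13 supporting cell markers, the lowest of Ndp KO, and 5163 for 8 Schwann cell markers, the lowest of all libraries, with 7774 to 14474 in the other Ndp KO libraries and 5617 to 11397 in WT. The 12 hair cell markers had their highest sum in Ndp KO replicate 1, where Calb1 alone held 207660 of 452361. Gene by gene, 3 of the 12 were highest there, 4 in Ndp KO replicate 3 and 5 in WT replicate 3. For 12 macrophage markers the sum was 1660.5 to 3911 in Ndp KO, with 1982 in replicate 1, and 393 to 2963 in WT. The 3911 was in Ndp KO replicate 4, which had the lowest mitotic sum of its genotype. WT replicate 1 held that 2963, 5.44 times the mean of the other WT libraries, while Ndp KO replicate 1 held 0.788 times the mean of the other Ndp KO libraries. The part of macrophages in the level of WT replicate 1 was not tested. Ptprc was at 0 in WT replicate 4, and no other macrophage marker was at 0.

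Of the Schwann cell markers Cdh19 was at 0 in 5 libraries and Pmp2 in 4, both including Ndp KO replicate 1. The 7 endothelial markers measured summed to 189 to 327 normalized counts in Ndp KO and 92.2 to 197 in WT, with Esam at 0 in 4 libraries and Tek and Flt1 at 0 in 2 each. The 12 mesenchyme markers summed to 28697 to 40933 in Ndp KO and 24245 to 32813 in WT, highest in Ndp KO replicate 4. The 4 red blood cell markers measured summed to at most 84.0 normalized counts in any library, and 3 of them were at 0 in replicate 1 of both genotypes.

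**Figure D5:**
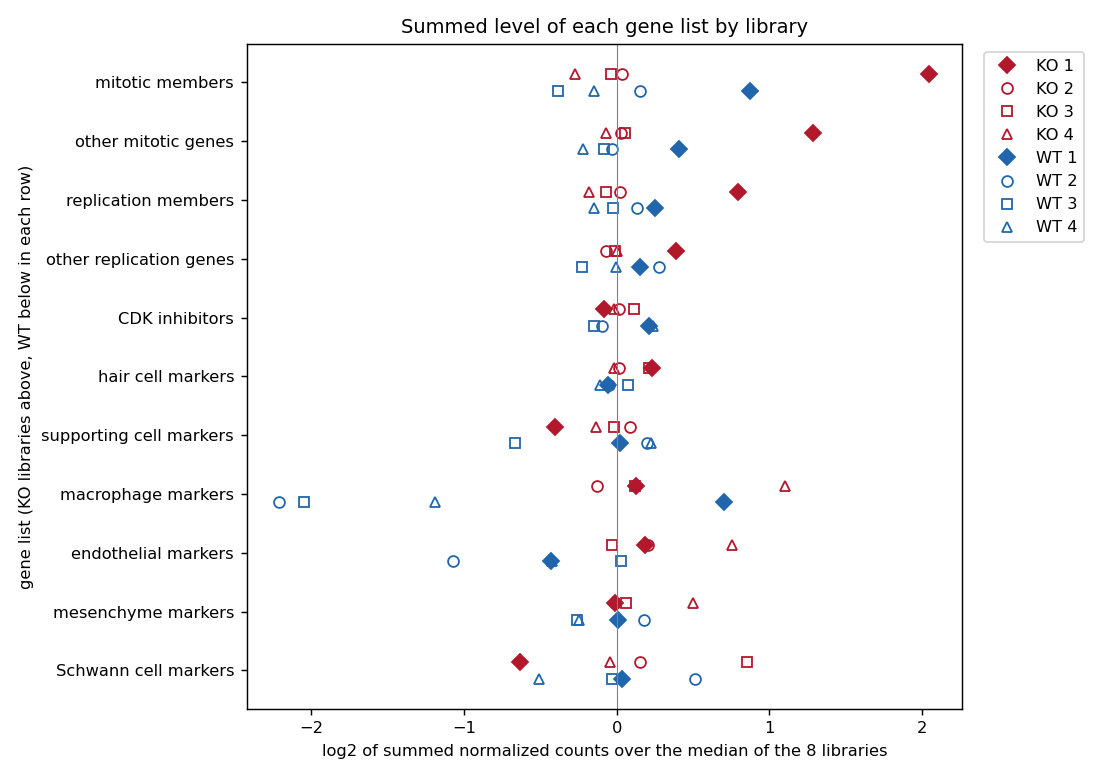
Summed normalized counts of each gene list in each library, as log2 of the sum over the median of the 8 libraries (x axis), with Ndp KO in red above WT in blue in each row and replicate 1 filled. Mitotic and other mitotic genes are highest in Ndp KO replicate 1 and next in WT replicate 1. The hair cell markers also have their highest sum in Ndp KO replicate 1, and no list of other cell types does.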

How the data were processed

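RNA of Atoh1-GFP sorted cochlear cells was sequenced in 8 libraries (SMART-Seq v4 and Nextera XT, which leave the strand unmarked, per the labels' protocols). The authors deposited 1 table whose signal columns are gene counts divided by 1 size factor per library, called normalized counts here. Dividing by the smallest step gave whole reads for 100% of 202744 values within 1e-06. Of upstream software, DESeq2 1.26.0, Salmon 0.14.2 and bcl2fastq 2.20 are listed with the build mm10 per the submitters' processing notes, which state no roles. The deposited table also holds p-values and log2 fold changes (WT over Ndp KO) computed by the authors, per the file headers; only the p-values are quoted.

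Groups came from the genotype labels, and replicates are numbered by accession, which pairs nothing. Limma 3.58.1 (R 4.3.3) with an intensity trend was fitted to log2(normalized count + 1), two-sided, with Benjamini-Hochberg adjustment, over the 18203 genes with at least 10 normalized counts in at least 4 libraries. A fold change on this scale is imprecise for low genes. edgeR 4.0.16 (quasi-likelihood) and DESeq2 1.42.0 on recovered reads (0 and 16 genes called), other pseudocounts (0.1 and 5), minimums and scalings, and leaving out libraries were alternatives. The fits were tested on simulated data. Reads of every pair of libraries differed beyond sampling noise. The floor of 3 reads covers counting error only, since amplified reads here carry no molecular identifiers.

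The members, lists and the library pairs left out were chosen with earlier results of these data known. All members are named. Values in every library are given for 8 fixed members, for the 4 of each set with the smallest p and the 4 with the largest ratio of libraries, and for others chosen after their values were seen. Of the other lists, Cdkn1a, Cdkn1b, Cdkn2d, Rb1, Ccnd1 and up to 4 with the smallest p could be named. Ccnd2 and Cdkn2c were added after their values were seen, and are not among the named genes of the checks below. Cdkn2a, Kdr, Cldn5 and Hbb-bt were not analysed here. Exon lengths are from GENCODE M21 (GRCm38, the build of mm10).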

Additional observations from a re-analysis of the deposited data

Results flagged for a closer look

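For each named gene and for both sums, the 4 libraries of a genotype were searched for 1 that lay apart, meaning that its gap to the nearest other library was too large a share of the genotype's range by Dixon's test. Of 118 groups 28 met this, and 23 of the 28 were Ndp KO replicate 1 on the high side. For a single group chance gives about 1 in 20. The genes share their libraries and the sums are made of them, so the 28 are not independent and their number is a description. Among mitotic genes its normalized counts were 295 for Mki67, 1004 for Top2a, 1136 for Ccnb1, 296 for Ccnb2, 487 for Cdk1, 357 for Aurka, 358 for Aurkb, 533 for Birc5, 417 for Cenpf, 989 for Ccna2, 739 for Cdc20, 512 for Kif11, 472 for Nusap1 and 759 for Ube2c, and for Cenpa outside the 36 they were 487. Among replication genes they were 819 for Mcm3, 979 for Mcm5, 1211 for Mcm6, 1376 for Rrm2 and 996 for Uhrf1, and for E2f1 they were 815. The sums, 12337 for the mitotic and 17280.4 for the replication genes, lay apart as well.

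WT replicate 1 lay apart on the high side for Mki67 (167), Ube2c (190.1), Ckap2l, a spindle protein (232), and Gins3, a helicase subunit (143). Ndp KO replicate 3 lay apart for Cdkn1a (3848).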

How the results depend on the processing

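No paired analysis was possible because replicate numbers follow accession order and only 1 title prefix is shared by both genotypes, too few for a block. None of the 36 genes was called under any of the 18 alternatives that gave it an adjusted p, with a lowest adjusted p of 0.510 for mitotic and 0.532 for replication genes. The count of all genes called, 1, was 0 with a pseudocount of 0.1, with at least 5 CPM in 4 libraries, in edgeR, without the shared title prefix and without both replicates 1, 16 in DESeq2, and 0 to 2 when 1 library was left out. No scaling moved the median of all genes by over 0.1. The 5 CPM minimum left 3 mitotic genes, with a median of -0.12 and 1 of 3 positive. Leaving out 1 library, the median log2 difference was 0.32 to 1.40 for mitotic and -0.10 to 0.21 for replication genes.

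Under all alternatives that tested the gene, the direction held for 18 of 21 mitotic, 7 of 15 replication and 18 of 21 other named genes. The 5 CPM minimum tested only 3 mitotic and 14 replication genes. The cause of the changes below was not tested. Rrm2 turned to 0.0018 with a pseudocount of 5. edgeR gave 0.20 for Mcm3, -0.0061 for Mcm4, 0.026 for Rrm1 and 0.58 for Rrm2, and DESeq2 0.21, -0.002834, 0.031 and 0.59. Without the shared title prefix Mcm3 was 0.12, Rrm1 0.046, Rrm2 0.67 and Cdc6 -0.048. Without both replicates 1 Mcm6 was -0.33, Tyms -0.034, Uhrf1 -0.16, Cdk2 0.01, Cdkn1b 0.071 and Cdkn1a 0.053. Leaving out 1 library at a time, the log2 difference changed sign within these ranges: Bub1b -0.040 to 1.05, Mki67 -0.48 to 1.40, Plk1 -0.29 to 0.13, Mcm3 -0.67 to 0.18, Mcm4 -0.12 to 0.14, Mcm6 -0.53 to 0.27, Rrm1 -0.36 to 0.19, Rrm2 -0.84 to 0.54, Uhrf1 -0.46 to 0.54, Cdk2 -0.22 to 0.061, Cdkn1a -0.34 to 0.12 and Cdkn1b -0.22 to 0.029. Tyms kept its sign, at 0.0041 to 0.27. A count of 0 allows 2.34 to 3.49 normalized counts. WT replicate 3, with Ccnb2 and Bub1 at 0, was the deepest library (48329827 reads).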
